A study of Mus musculus with 20 samples.

Results

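The genes described here are 48 mouse genes of the mitotic machinery: the cyclin-CDK engine that starts mitosis, the mitotic kinases, the spindle checkpoint, the kinetochore, spindle motors, the proteins of cytokinesis and the proteins that pack and untangle chromosomes. The list was chosen by symbol, with earlier results of these data known. Of the 48 genes 29 had a probe that counted as measured, among 12921 genes and unnamed probes tested on the arrays. A probe counted as measured when its detection p was under 0.01 on at least 5 of the 20 arrays, and a gene with several such probes was represented by the one with the highest mean. The left ventricle was sampled in mice of the standard inbred strain C57BL/6J, aged 12 to 15 weeks. The 4 groups of 5 mice were male MI, female MI, male sham and female sham, with 1 array per mouse. MI (myocardial infarction) mice had a coronary artery tied and sham mice had the surgery without ligation. All tissue was taken 3 days after surgery with the infarct cut away, so that the samples hold the surviving ventricle. All 20 mice carry the same strain background and no transgene is named in the labels.

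A dividing cell switches on its mitosis genes as a block. Cyclin A and cyclin B activate CDK1, Polo and Aurora kinases build the spindle and correct its attachments, and the checkpoint holds back the anaphase-promoting complex until every kinetochore carries microtubules. Centralspindlin, PRC1 and anillin then organise the midzone and the cleavage furrow, while condensin and topoisomerase II shape and separate the chromosomes. Most of these genes are silent in resting cells, where a repressor complex containing MuvB sits on a promoter element called the CHR (cell cycle genes homology region). In cycling cells MuvB instead recruits B-MYB, the product of Mybl2, and FOXM1 to the same promoters, often beside CCAAT boxes bound by NF-Y. The adult mammalian heart is mostly a non-dividing tissue by cell volume, with cardiomyocytes that have largely left the cell cycle, while fibroblasts, endothelial cells and immune cells of the infarcted heart can divide.

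The promoters of the list carried this signature in their sequence. A promoter window in mouse genome build GRCm38.p6 (RefSeq) was found for 40 of the 48 genes, running from 250 bases before to 50 bases after the transcription start. The CHR was searched as TTTGAA and the CCAAT box as CCAAT, both on either strand. A CHR match lay in 29 of 40 windows (72.5%), against 1166 of 8311 (14.0%) for all tested genes with a window and 20.2% of the 27025 genes of the table. A CCAAT match lay in 30 of 40 (75%), against 42.9% of the tested genes and 41.1% of the table. Both motifs stood together in 26 of 40 (65.0%), against 5.63% of the tested genes and 7.97% of the table. Within 50 bases on either side of the start, a CHR lay in 27 of 40 (67.5%), against 3.62% of the tested genes. The motifs overlapped once in all these windows. All 5 cytokinesis genes and all 6 chromosome-structure genes with a window held a CHR. The 11 windows without one included those of Mybl2, Birc5, Mad2l1 and Nusap1. A match is a run of letters and does not show that a factor binds.

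The 150 bases before the start of 8 of these genes follow, chosen because each gene but Cenpa had the largest response to infarction of its functional group among genes with a window, and because Cenpa, whose window holds both motifs, was not called in either sex. Each runs 5′ to 3′ toward the start, on the strand of the gene, with CHR and CCAAT matches on either strand in capitals (TTTGAA or TTCAAA, and CCAAT or ATTGG). The Prc1 CHR crosses the start, so its last base is not shown. The window of Birc5, the pick of the mitotic kinases and passenger proteins, holds neither motif. The CHR matches of Spc25 and Cenpa lie 24 and 16 bases after the start, outside the printed run.
Cdk1, chr10:69352913-69353062, minus strand: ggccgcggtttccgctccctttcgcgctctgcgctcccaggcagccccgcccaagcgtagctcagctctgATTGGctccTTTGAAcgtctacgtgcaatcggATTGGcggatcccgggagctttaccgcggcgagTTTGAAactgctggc
Birc5, chr11:117849087-117849236, plus strand: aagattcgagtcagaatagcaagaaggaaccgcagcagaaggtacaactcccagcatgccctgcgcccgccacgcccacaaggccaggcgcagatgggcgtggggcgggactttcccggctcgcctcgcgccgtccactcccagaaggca
Cdc20, chr4:118437344-118437493, minus strand: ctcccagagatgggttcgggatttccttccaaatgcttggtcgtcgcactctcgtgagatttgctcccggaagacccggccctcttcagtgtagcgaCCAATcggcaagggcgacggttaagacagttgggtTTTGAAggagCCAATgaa
Spc25, chr2:69206214-69206363, minus strand: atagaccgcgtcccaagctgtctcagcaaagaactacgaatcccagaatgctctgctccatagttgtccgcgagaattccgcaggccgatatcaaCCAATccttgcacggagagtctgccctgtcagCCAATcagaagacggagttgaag
Kif22, chr7:127042421-127042570, minus strand: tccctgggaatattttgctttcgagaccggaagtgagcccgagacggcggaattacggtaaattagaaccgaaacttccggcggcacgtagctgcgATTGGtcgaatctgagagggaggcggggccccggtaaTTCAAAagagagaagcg
Prc1, chr7:80294301-80294450, plus strand: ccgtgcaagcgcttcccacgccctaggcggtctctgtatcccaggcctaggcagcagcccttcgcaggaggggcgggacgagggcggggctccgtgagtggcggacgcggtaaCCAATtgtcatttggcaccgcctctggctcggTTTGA
Top2a, chr11:99024190-99024339, minus strand: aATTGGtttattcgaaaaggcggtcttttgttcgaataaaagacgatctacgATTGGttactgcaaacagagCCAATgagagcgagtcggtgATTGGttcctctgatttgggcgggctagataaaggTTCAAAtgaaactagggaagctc
Cenpa, chr5:30666736-30666885, plus strand: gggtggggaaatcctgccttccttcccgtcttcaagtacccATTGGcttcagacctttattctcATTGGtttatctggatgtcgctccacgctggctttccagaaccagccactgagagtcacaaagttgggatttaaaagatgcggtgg

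Cdk1 shows the arrangement most plainly, with 2 CHR and 2 CCAAT matches in the printed run. Top2a has 4 CCAAT matches and 1 CHR there. All CHR and CCAAT matches of the 40 windows are drawn in the map of motif positions, where 31 of the 42 CHR matches fall within 50 bases of the start.

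**Figure D1:**
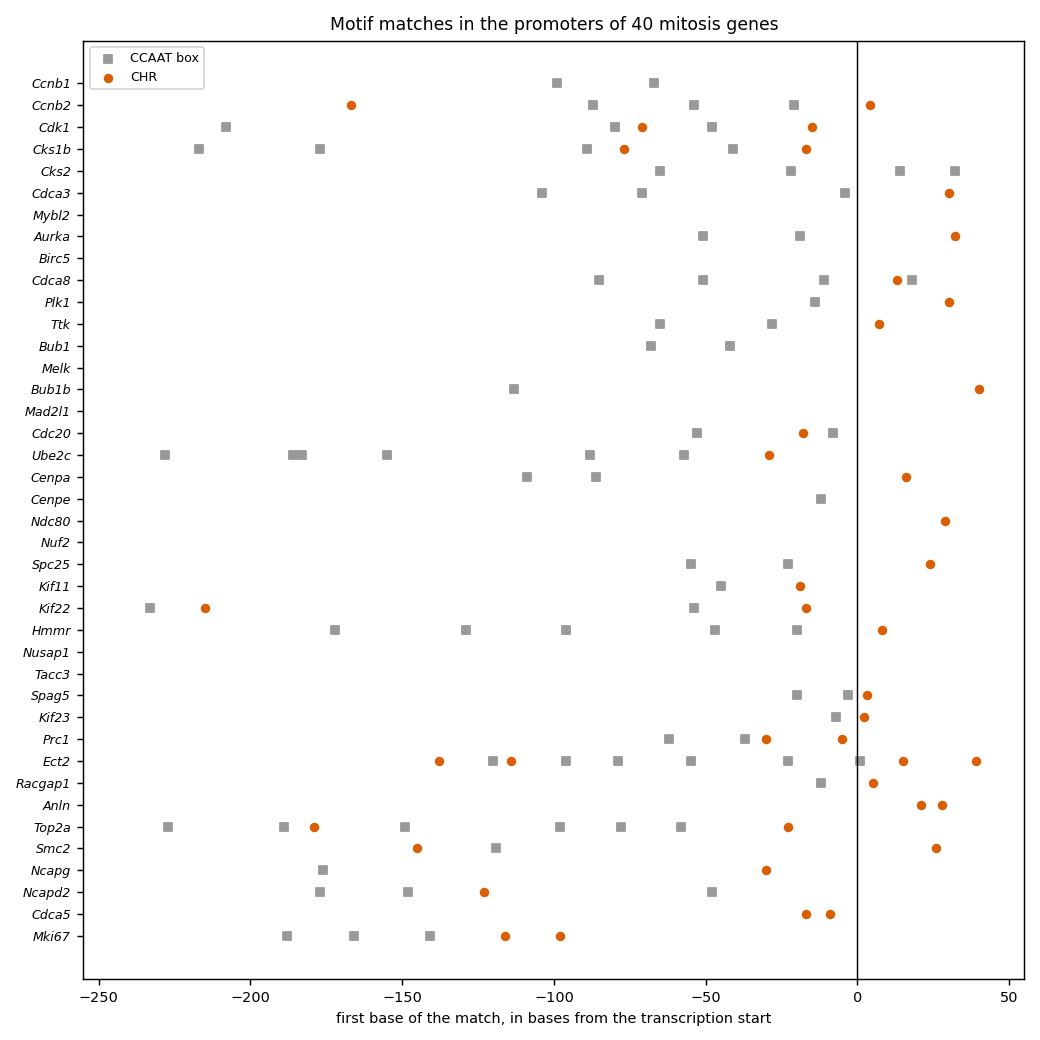
Positions of CHR (orange) and CCAAT box (grey) matches in the promoter windows of 40 mitosis genes, one row per gene, with distance from the transcription start in bases on the horizontal axis and the start as a vertical line. For the 2 genes with 2 annotated starts the matches of both windows are drawn. CHR matches crowd around the start, while CCAAT matches lie mostly upstream of it.

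Not every gene of the list could be read. Ccnb1, Tacc3 and Mki67 had no probe named for them in the platform annotation used here. A further 16 genes had a named probe that did not count as measured, among them cyclins A2 and B2 (Ccna2, Ccnb2), the CDK-binding proteins Cks1b and Cks2, the checkpoint kinases Ttk and Bub1, the ubiquitin-conjugating enzyme Ube2c and the condensin subunits Smc2 and Ncapg. Of these 16, 14 were detected on 0 arrays, so that these 14 have no measured level here. Of the 29 measured genes, 12 were detected on all 20 arrays, 28 on all 10 MI arrays and 9 on under 5 of the 10 sham arrays. A gene that counts as measured through its MI arrays alone had to differ, and the 12 genes seen everywhere are therefore given apart.

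Levels below are log2 intensities after background correction, addition of an offset of 16 and quantile normalisation. The offset makes differences of dim probes smaller. Levels are given by mouse in the order of the arrays within a group, and a level of one gene cannot be set against that of another because probes differ in brightness. A gene was called higher or lower when its adjusted p was under 0.05 in limma's moderated test (adjusted by Benjamini-Hochberg over all 12921 genes and probes). SE is the standard error of a log2 difference between 5 mice and 5 mice. For a gene detected on 0 of 5 sham arrays, "at least N-fold" sets the MI mean against sham arrays taken at their lowest detected signal or, where higher, the probe's own value.

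The arrays had median raw intensities of 31.4 to 39.2 and detected 34.6% to 40.6% of 45281 probes. The 20 arrays lie on 4 chips: male MI mice on chips 1 and 2, female MI mice on chips 3 and 4, and sham mice on the same chips as MI mice of their sex, except that 2 female sham arrays are on chip 2. After MI, sex and chip therefore cannot be told apart. Several arrays stood apart from their groups. Over the 27 mitosis genes called in both sexes, female MI 3 had the lowest level of its group for 25, and male MI 3 had the highest level of its group for 26. The mean level of the 27 genes was 6.63 in female MI 3, against 7.27 to 7.63 in the other 4 female MI mice. Female MI 3 was also the lowest of its group in the mean of 8.40 over macrophage and monocyte markers (8.69 to 9.25 in the others) and in DNA replication genes, and the highest in cardiomyocyte markers (12.87, against 11.94 to 12.78). The 3 arrays at position F of a chip, female MI 4, male sham 3 and female sham 2, were the lowest of their groups in cardiomyocyte markers (11.94, 12.13 and 11.72, with all other arrays of these groups between 12.62 and 12.99). Centred on their groups, they lay higher than the other arrays by 0.72 for Cdca8 and 0.71 for Prc1, and lower by 0.62 for Stmn1 (log2 values, the extremes over the 29 genes).

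Infarction raised nearly every measured mitosis gene in both sexes. In males 27 of 29 genes were called higher and 0 lower, against 9.77% of all tested genes called higher and 8.59% called lower. In females 27 of 29 were called higher and 0 lower, against 16.5% called higher and 16.3% called lower. Because the list was chosen with earlier results of these data known, these shares describe it and are no independent test. The same 2 genes, Cenpa and Smc4, were not called in either sex. The median log2 difference of the 29 genes was 1.44 in males (all tested genes −0.04) and 1.78 in females (all tested genes −0.05). With called genes that no sham array detected set at their bound, 6 in males and 2 in females, the medians were 1.41 and 1.78. Smc4, also detected on 0 male sham arrays, was not called and kept its fitted value in that median. Every MI mouse lay above every sham mouse for 27 genes in males (9.71% of all genes) and for 26 in females (8.11%).

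Within single chips, which hold few mice of each group, most of these calls remained past the threshold. On chip 1, with 3 male MI and 3 male sham mice, 25 genes were called higher (8.36% of all genes) with a median difference of 1.56, and the calls of Stmn1 and Cdca5 were lost. On chip 2, with 2 of each, 24 were called (4.35% of all) with a median of 1.21, and Kif23, Ncapd2 and Cdca5 were lost. On chip 3, with 4 female MI and 2 female sham mice, 24 were called (5.23% of all) with a median of 1.63, and Tpx2, Stmn1 and Ncapd2 were lost. Chip 4 holds 1 array of each female group and gives no value of its own. Without female MI 3 the female count was 28 and the median 1.93, and without male MI 3 the male count was 26 and the median 1.30. Without the 3 position F arrays 28 genes were called higher in males (11% of all genes) and 27 in females (16.9%), with medians of 1.40 and 1.78. When a rise beyond 1.5-fold was required, 12 were called in males (0.743% of all genes) and 23 in females (2.76%).

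Genes seen on every array, which did not depend on the detection filter, moved in the same way. Among the 12 genes detected on all 20 arrays, 11 were called higher in males (8.61% of such genes) and 11 in females (15.1%), with medians of 1.56 and 1.95. With no filter on dim probes, 27 of the 45 genes with a probe were called higher in males (3.55% of all) and 31 in females (7.03%). None of the 45 was called lower, against 2.89% of all in males and 6.16% in females. Of the 16 dim genes, 1 was called in males (Ect2) and 4 in females (Ttk, Melk, Smc2 and Ncapg, named after their values were seen). Ect2, Ttk and Ncapg were detected on 0 of 20 arrays, and their called differences were only 0.18, 0.11 and 0.12 (log2 values). Melk and Smc2, detected on 2 and 3 arrays, differed by 0.50 and 0.60 in females. The male call of Stmn1 was lost in the fit with no filter. The median differences of the 16 were 0.02 in males and 0.01 in females, on probes at or near the background. In bulk tissue, fewer cells of a type and less RNA per cell cannot be told apart, and the same holds for more of either.

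**Figure D2:**
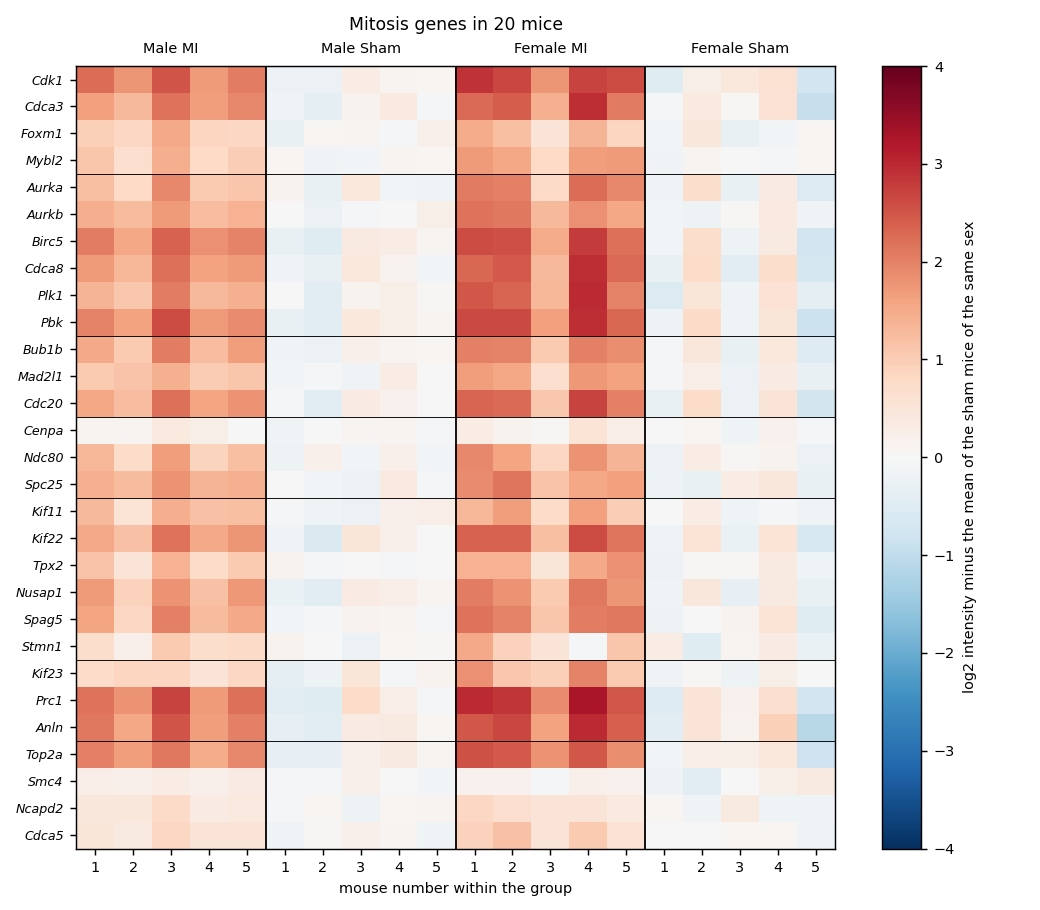
Log2 intensity of the 29 measured mitosis genes (rows, grouped by function) in 20 mice (columns, male MI, male sham, female MI, female sham), each minus the mean of the sham mice of the same sex, with red for higher and blue for lower. MI columns are red, though pale for Cenpa and Smc4, except that Smc4 in female MI 3 and Stmn1 in female MI 4 lie just below the sham mean. Female MI 3 is the palest of its group, and the sham columns vary around 0.

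Among the genes that drive entry into mitosis, the 4 measured of 9 listed all rose in both sexes. Cdk1, the kinase that triggers mitosis, had levels of 7.74, 7.29, 8.05, 7.23 and 7.57 in male MI mice, against 5.28, 5.29, 5.81, 5.61 and 5.59 in male sham mice. In females Cdk1 had 8.55, 8.33, 7.40, 8.35 and 8.25 in MI mice, against 5.16, 5.89, 6.06, 6.24 and 4.89 in sham mice. The groups were far apart, with female MI 3 nearest to the sham mice among MI females. The difference was 2.06 (SE 0.243, 4.16-fold, adjusted p = 1.46e-05) in males and 2.53 (5.78-fold, adjusted p = 4.34e-07) in females. Cdk1 had 2 other probes, which were detected on 0 of 20 arrays.

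Foxm1, a transcription factor of late cell cycle genes, moved less than Cdk1 and Cdca3 in the point estimates of both sexes. Its levels were 5.85, 5.74, 6.43, 5.76 and 5.74 in male MI mice, against 4.59, 5.00, 5.01, 4.82 and 5.10 in male sham mice. Female MI mice had 6.61, 6.31, 5.65, 6.47 and 5.97 for Foxm1, against 5.01, 5.57, 4.83, 5.00 and 5.18 in female sham mice. The groups did not overlap in either sex, although female MI 3 at 5.65 came close to female sham 2 at 5.57. Foxm1, detected on 2 of 5 male sham arrays, rose 2.00-fold in males (adjusted p = 0.00066) and 2.12-fold in females (adjusted p = 0.000116). Mybl2, its partner on MuvB, was detected on 0 sham arrays of either sex and on all 10 MI arrays. It was at least 1.42-fold higher in male MI mice, with means of 5.43 after MI and 4.43 after sham (adjusted p = 0.00019). In females it was at least 2.08-fold higher (adjusted p = 1.22e-06). Cdca3, which promotes mitotic entry by marking the inhibitor WEE1 for destruction, rose 3.35-fold in males and 4.69-fold in females. Its second, dimmer probe differed by 1.16 in males and 1.498 in females, against 1.74 and 2.23 for the probe used (log2 values). The second Foxm1 probe differed by more than the one used, 1.06 in males and 1.39 in females, against 1.00 and 1.08.

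The mitotic kinases and the chromosomal passenger complex, 6 measured of 9 listed, all rose too. Pbk, a kinase of the MAP kinase kinase family that is active in mitosis, had the largest fitted difference among the probes used, close to that of Birc5 in males. Its levels were 7.48, 7.13, 8.10, 7.21 and 7.41 in male MI mice, against 5.21, 5.05, 5.92, 5.73 and 5.63 in male sham mice. In females Pbk had 8.21, 8.22, 7.20, 8.53 and 7.87 in MI mice, against 5.37, 6.34, 5.38, 6.05 and 4.70 in sham mice. Each MI mouse was well above each sham mouse, and female sham 5 was the lowest of all. Pbk rose 3.89-fold in males (log2 SE 0.278, adjusted p = 7.57e-05) and 5.42-fold in females (adjusted p = 2.78e-06).

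Aurka, the Aurora kinase of centrosomes and spindle poles, had the smallest male difference of these 6, and in females its difference was close to that of Aurkb. It had 6.51, 6.12, 7.25, 6.35 and 6.41 in male MI mice, against 5.45, 5.02, 5.75, 5.22 and 5.16 in male sham mice. Among females Aurka had 7.50, 7.45, 6.20, 7.67 and 7.34 after MI, against 5.23, 6.13, 5.12, 5.74 and 4.88 after sham. In females female MI 3 at 6.20 lay just above female sham 2 at 6.13, and the other 4 MI mice lay well above any sham mouse. Aurka rose 2.31-fold in males (adjusted p = 0.00352) and 3.50-fold in females (adjusted p = 3.53e-05). The passenger complex, which corrects faulty attachments, was represented by its kinase Aurkb, by Birc5 (survivin) and by Cdca8 (borealin). Aurkb, detected on 1 of 5 male and 2 of 5 female sham arrays, rose 2.65-fold in males and 3.47-fold in females. Birc5 rose 3.87-fold in males and 5.04-fold in females, and Cdca8 3.28-fold and 4.75-fold. The dimmer Cdca8 probe differed by less, 1.00 in males and 1.498 in females, against 1.71 and 2.25 for the probe used (log2 values). The dimmer Birc5 probes differed by 2.01 and 1.79 in males and 2.48 and 2.29 in females. These lay near the 1.95 and 2.33 of the Birc5 probe used. Plk1, the Polo kinase, rose 2.71-fold in males (adjusted p = 0.000775) and 4.67-fold in females (adjusted p = 3.76e-06).

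**Figure D3:**
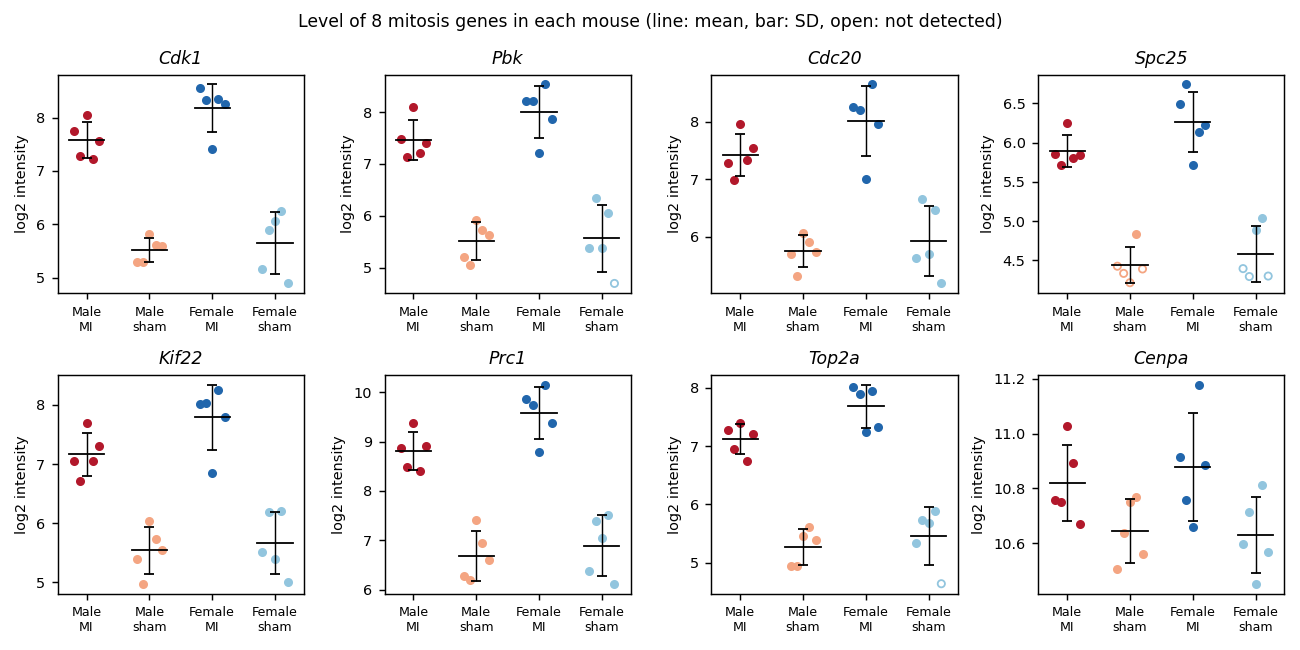
Log2 intensity of Cdk1, Pbk, Cdc20, Spc25, Kif22, Prc1, Top2a and Cenpa in each of 20 mice, with the group mean as a line, the SD (n = 5) as a bar and open points for arrays on which the probe was not detected. For the first 7 genes each MI mouse lies above each sham mouse of its sex, while for Cenpa the groups overlap.

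The spindle checkpoint and the machinery it restrains gave 3 measured genes of 4, all called higher. Cdc20, the activator of the anaphase-promoting complex, had 7.28, 6.99, 7.96, 7.34 and 7.55 in male MI mice, against 5.70, 5.33, 6.07, 5.92 and 5.74 in male sham mice. In females Cdc20 had 8.26, 8.20, 7.01, 8.65 and 7.96 after MI, against 5.63, 6.67, 5.71, 6.46 and 5.19 after sham. The groups stood apart in both sexes, by least between female MI 3 and female sham 2. Cdc20 rose 3.19-fold in males (log2 SE 0.279, adjusted p = 0.000374) and 4.24-fold in females (adjusted p = 1.31e-05). Of 3 further Cdc20 probes, 2 rose by similar amounts, and the dimmest differed by 0.38 in males (adjusted p = 0.0914) and 1.00 in females.

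Mad2l1 encodes MAD2, the checkpoint protein that holds CDC20. Its levels were 7.20, 7.30, 7.56, 7.18 and 7.27 in male MI mice, against 6.04, 6.08, 6.02, 6.46 and 6.18 in male sham mice. Female MI mice had 8.04, 7.93, 7.05, 8.10 and 7.99 for Mad2l1, against 6.30, 6.65, 6.15, 6.69 and 6.07 in female sham mice. Within each group the mice were tight, with female MI 3 as the exception. Mad2l1 rose 2.21-fold in males (adjusted p = 0.00014) and 2.73-fold in females (adjusted p = 3.85e-06). A second, dimmer Mad2l1 probe differed by 0.80 in males and 0.88 in females, against 1.15 and 1.45 for the probe used (log2 values). Bub1b, the checkpoint protein BUBR1, rose 2.82-fold in males and 3.44-fold in females. Its second, dimmer probe differed by 0.65 in males and 1.26 in females, against 1.496 and 1.784 for the probe used (log2 values). The size of the Bub1b and Mad2l1 responses therefore depends on the probe.

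At the centromere and kinetochore the 3 measured genes of 5 split. Spc25, a subunit of the NDC80 complex that grips microtubules, had 5.85, 5.71, 6.24, 5.80 and 5.85 in male MI mice, against 4.43, 4.33, 4.22, 4.83 and 4.39 in male sham mice. In females Spc25 had 6.49, 6.74, 5.72, 6.14 and 6.23 after MI, against 4.40, 4.29, 4.89, 5.05 and 4.30 after sham. MI and sham mice were clearly separate in both sexes, and the probe was detected on 1 of 5 male and 2 of 5 female sham arrays. Spc25 rose 2.74-fold in males (log2 SE 0.181, adjusted p = 2.12e-05) and 3.20-fold in females (adjusted p = 1.52e-06). A second Spc25 probe differed by 1.33 in males and 1.58 in females, near the 1.45 and 1.68 of the probe used. Ndc80, which names that complex, was detected on 0 male sham arrays and was at least 1.77-fold higher in male MI mice, with means of 5.75 after MI and 4.59 after sham (adjusted p = 0.000293). In females Ndc80 rose 2.83-fold, with 2 of 5 sham arrays detected.

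Cenpa, the histone H3 variant that marks centromeres, was not called. It had 10.76, 10.75, 11.03, 10.89 and 10.67 in male MI mice, against 10.51, 10.64, 10.75, 10.77 and 10.56 in male sham mice. Cenpa had 10.91, 10.76, 10.66, 11.18 and 10.89 in female MI mice, against 10.60, 10.71, 10.45, 10.81 and 10.57 in female sham mice. The groups overlapped in both sexes. The difference was 0.17 in males (95% confidence interval −0.05 to 0.40, adjusted p = 0.267) and 0.25 in females (0.03 to 0.47, adjusted p = 0.0775). A second, dimmer Cenpa probe also was not called, at −0.06 in males and 0.28 in females.

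The spindle motors and microtubule-binding proteins, 6 measured of 8, were all called higher in both sexes. Kif22, a chromokinesin that pushes chromosome arms, had 7.06, 6.72, 7.70, 7.05 and 7.31 in male MI mice, against 5.40, 4.98, 6.04, 5.73 and 5.55 in male sham mice. In females Kif22 had 8.01, 8.04, 6.85, 8.26 and 7.79 after MI, against 5.50, 6.19, 5.40, 6.21 and 5.01 after sham. Male MI 3 was the highest of the MI males and female MI 3 the lowest of the MI females, and neither overlapped the sham mice. Kif22 rose 3.09-fold in males (log2 SE 0.266, adjusted p = 0.000309) and 4.37-fold in females (adjusted p = 6.48e-06).

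Stmn1, the microtubule-destabilising protein stathmin, had the smallest fitted difference of the spindle proteins. Its levels were 6.09, 5.57, 6.42, 6.08 and 6.13 in male MI mice, against 5.51, 5.38, 5.13, 5.44 and 5.42 in male sham mice. For Stmn1 female MI mice had 6.75, 6.19, 5.75, 5.19 and 6.35, against 5.56, 4.78, 5.35, 5.57 and 5.00 in female sham mice. The female groups overlapped through female MI 4 at 5.19, and the male groups were separated only by the narrow gap under male MI 2. Stmn1 was 1.60-fold higher in males (adjusted p = 0.038) and 1.74-fold higher in females (adjusted p = 0.00931). The male call was lost in 8 of the 10 fits that left out 1 male array, and the calls of both sexes were lost with the chip as a term.

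Of the other spindle genes, Kif11, the motor that pushes spindle poles apart, Tpx2, which activates Aurora A, and Spag5 (astrin) were detected on 0 male sham arrays. Kif11 was at least 1.70-fold, Tpx2 at least 1.33-fold and Spag5 at least 2.20-fold higher in male MI mice (adjusted p = 0.000235, 0.0016 and 0.000135). In females, where Kif11 and Tpx2 were detected on 1 of 5 sham arrays and Spag5 on 2 of 5, the fitted differences were 2.42-fold for Kif11, 2.50-fold for Tpx2 and 3.68-fold for Spag5, all called. These folds rest on sham levels mostly at the background. Nusap1, a microtubule-bundling protein, rose 2.77-fold in males and 3.37-fold in females.

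Cytokinesis genes, 3 measured of 6, held the largest response of all. Prc1, which bundles the antiparallel microtubules of the midzone, had 8.87, 8.49, 9.38, 8.40 and 8.91 in male MI mice, against 6.28, 6.20, 7.42, 6.94 and 6.61 in male sham mice. In females Prc1 had 9.86, 9.74, 8.78, 10.15 and 9.37 after MI, against 6.37, 7.40, 7.05, 7.52 and 6.12 after sham. No MI mouse came near a sham mouse. Prc1 rose 4.35-fold in males (log2 SE 0.294, adjusted p = 6.49e-05) and 6.44-fold in females (adjusted p = 1.71e-06). Anln, the scaffold anillin of the cleavage furrow, rose 3.91-fold in males and 5.37-fold in females.

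Kif23, the motor of centralspindlin, moved least of the 3. It had 9.42, 9.57, 9.55, 9.21 and 9.53 in male MI mice, against 8.35, 8.50, 9.18, 8.66 and 8.83 in male sham mice. In females Kif23 had 10.48, 9.73, 9.62, 10.64 and 9.71 after MI, against 8.53, 8.72, 8.45, 8.90 and 8.68 after sham. Male sham 3 at 9.18 nearly reached male MI 4 at 9.21. Kif23 rose 1.68-fold in males (adjusted p = 0.0076) and 2.60-fold in females (adjusted p = 1.36e-05). The 2 dimmer Kif23 probes that counted as measured differed by more, 1.73 and 1.44 in males and 2.01 and 1.95 in females, so the size of the Kif23 response depends on the probe.

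Chromosome structure, 4 measured of 7, was the most mixed group. Top2a, topoisomerase II alpha, had 7.28, 6.96, 7.39, 6.75 and 7.21 in male MI mice, against 4.94, 4.95, 5.47, 5.62 and 5.40 in male sham mice. In females Top2a had 8.01, 7.89, 7.24, 7.94 and 7.33 after MI, against 5.34, 5.73, 5.67, 5.88 and 4.64 after sham. A wide gap parted the MI mice from the sham mice in both sexes. Top2a rose 3.59-fold in males (log2 SE 0.215, adjusted p = 1.41e-05) and 4.68-fold in females (adjusted p = 4.44e-07). A second, dimmer Top2a probe differed by 0.74 in males and 1.31 in females, against 1.84 and 2.23 for the probe used (log2 values).

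Smc4, a core subunit of condensin, was the second gene not called. It had 4.71, 4.64, 4.73, 4.65 and 4.75 in male MI mice, against 4.40, 4.37, 4.66, 4.46 and 4.32 in male sham mice. Smc4 had 4.80, 4.78, 4.58, 4.84 and 4.80 in female MI mice, against 4.41, 4.21, 4.65, 4.84 and 4.99 in female sham mice. All of these values lie close to the background, and the probe was detected on 6 of 20 arrays. The adjusted p was 0.145 in males and 0.4 in females. Without the position F arrays the male difference of Smc4 was 0.31 and was called (adjusted p = 0.0425). A second Smc4 probe, detected on 6 arrays as well, was called in females (difference 0.46, adjusted p = 0.00214) and not in males. Ncapd2, another condensin subunit, rose 1.39-fold in males (adjusted p = 0.00873) and 1.5-fold in females (adjusted p = 0.000836). Its 2 dimmer probes were not called, with differences of 0.07 and 0.09 in males and 0.14 and 0.22 in females. Cdca5 (sororin), which protects cohesin, was detected on 0 sham arrays and was at least 1.04-fold higher in male MI mice (adjusted p = 0.00553) and at least 1.56-fold higher in female MI mice (adjusted p = 4.75e-05).

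**Figure D4:**
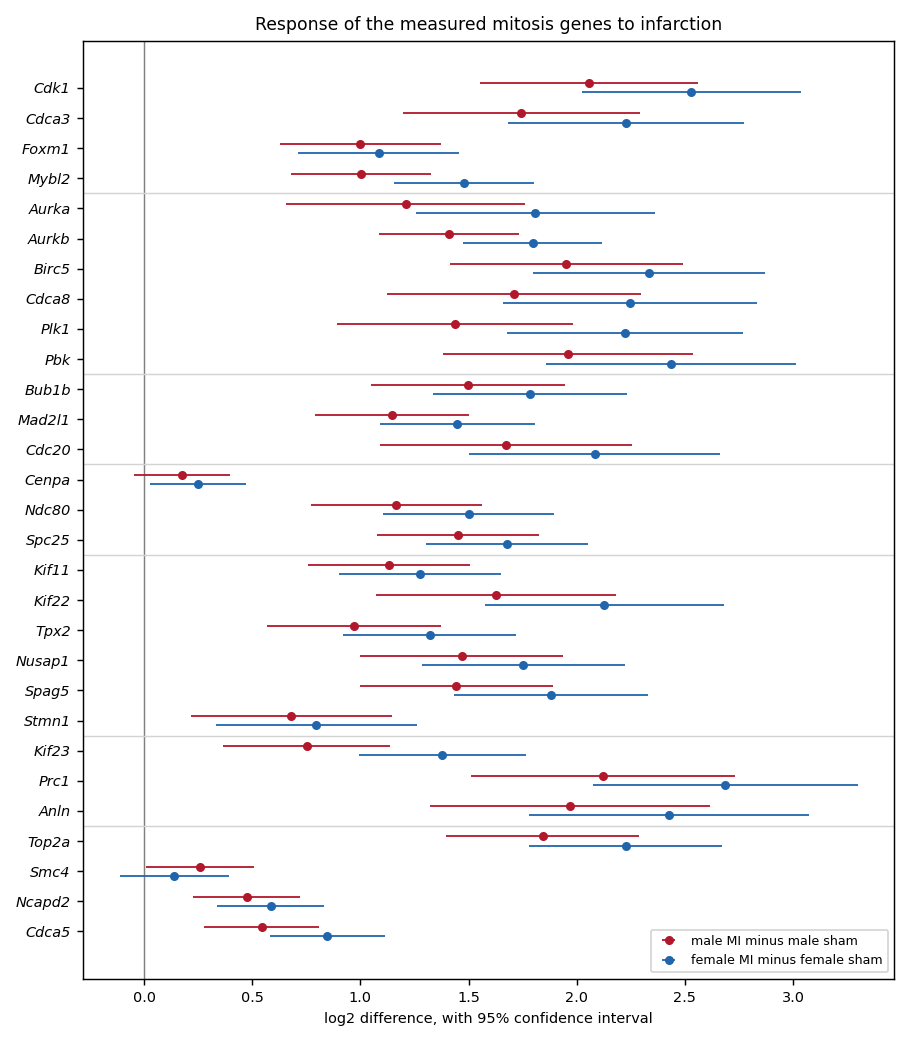
Log2 difference of MI minus sham with its 95% confidence interval for the 29 measured mitosis genes, in male (red) and female (blue) mice, with functional groups parted by grey lines. In females the intervals of all genes but Smc4 lie above 0, in males those of all genes but Cenpa, and the female point lies to the right of the male point for 28 of 29 genes.

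The female response was the larger one in the point estimates, and this difference was not called for any gene. The study set male against female mice, and the comparison for it is the interaction, the female difference minus the male difference. Its median over the 29 genes was 0.38 (all tested genes 0.03), and it was above 0 for 28 of 29. In limma's test 0 of 29 were called, against 0% of all 12921. At an unadjusted p under 0.05 there were 3 genes, Mybl2, Plk1 and Kif23, against 3.72% of all genes with a larger female response. Plk1 had an interaction of 0.78 (95% confidence interval 0.01 to 1.56, adjusted p = 0.585), and Kif23 had 0.63 (0.08 to 1.17, adjusted p = 0.554). The Kif23 value is that of the probe used, with responses of 0.75 in males and 1.38 in females. The responses of its 2 dimmer probes lay closer between the sexes, 1.73 and 2.01 for one and 1.44 and 1.95 for the other. For Cdk1 the interaction was 0.47 with an interval of −0.24 to 1.19, which includes 0. Without female MI 3 the median interaction was 0.56 and 0 of 29 were called (0% of all genes). In that fit 13 had an unadjusted p under 0.05 with a larger female response, against 7.19% of all genes. Female MI 3 was left out after it had been lowest for most of these same genes, so these values are no independent evidence.

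Set directly against male MI mice, female MI mice had higher levels for 27 of 29 genes, with a median difference of 0.52 (all tested genes −0.01). 0 of 29 genes were called, against 0.0697% of all genes called higher, and 21 of 29 had an unadjusted p under 0.05, against 7.96% of all genes. Plk1 had 7.73, 7.57, 6.55, 8.22 and 7.23 in female MI mice, against 6.41, 6.13, 7.10, 6.34 and 6.46 in male MI mice. Female MI 3 lay inside the male range and male MI 3 inside the female range, and the other mice were apart. The difference was 0.97 (95% confidence interval 0.42 to 1.51, adjusted p = 0.137). Kif23 was the only one of the 29 for which every female MI mouse lay above every male MI mouse, against 1.11% of all genes. This holds for the Kif23 probe used, and its dimmer probes were not set between the sexes in this way.

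The count of 0 called genes between female and male MI mice turned on 1 mouse. Without female MI 3, 13 of the 29 genes were called higher in female than in male MI mice, against 3.04% of all genes, and the median difference was 0.71. Female MI 3 was left out after it had been lowest of its group for most of these same genes. Its removal therefore raised their female MI means, while male MI 3, highest of its group for most of them, stayed in. The 13 calls are no independent evidence. The 13 were Cdk1, Cdca3, Mybl2, Aurka, Cdca8, Plk1, Bub1b, Mad2l1, Kif22, Tpx2, Spag5, Kif23 and Cdca5. Plk1 then differed by 1.19 (adjusted p = 0.00993) and Mad2l1 by 0.71 (adjusted p = 0.00799). With weights that give less influence to arrays far from their group, 25 of 29 were called, against 8.29% of all genes. The weights were estimated from these same arrays. Female MI 1 and 2 had weights of 2.25 and 2.32, and female MI 3, 4 and 5 had 0.517, 0.457 and 0.548. The 25 calls are therefore no independent evidence either. The interaction was called for 0 of 29 genes in both of these fits, against 0% of all genes called higher without female MI 3 and 0.0774% with the weights, where 10 genes outside the list were called higher and 21 lower. Because the MI mice of each sex lie on chips of their own, chip and sex cannot be told apart in this comparison.

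After sham surgery the sexes were close. The median female minus male difference was 0.16 (all tested genes −0.02), 0 of 29 genes were called, against 0.0542% of all genes called higher, and 0 had an unadjusted p under 0.05. Sham females spread more than sham males: the mean over the 27 called genes ran between 5.10 and 5.91 in sham females and between 5.20 and 5.58 in sham males. Female sham 5 was the lowest of its group for 16 of the 27 genes and female sham 4 the highest for 15.

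Other genes of the cell cycle rose with the mitosis genes, and some did not. Each list is to be read against all tested genes, with medians of −0.04 in males and −0.05 in females and 9.77% and 16.5% called higher. Of 78 further mitosis genes 61 were measured. In males 34 were called higher and 1 lower with a median of 0.50, and in females 36 higher and 3 lower with a median of 0.74. Kntc1, a kinetochore protein that brings the checkpoint to unattached kinetochores, rose 2.15-fold in males and 3.14-fold in females. Kif18b, a microtubule-depolymerising kinesin, was detected on 0 sham arrays and was at least 2.00-fold higher in males (adjusted p = 2.26e-05) and at least 2.85-fold higher in females (adjusted p = 4.57e-07). Pttg1 (securin), which restrains separase, fell in females by a log2 value of 0.63 (adjusted p = 0.00191), with a male difference of −0.41 (adjusted p = 0.0516). Cenpf, a kinetochore protein, fell by 0.47 in females (adjusted p = 0.00183), with a male difference of −0.16 (adjusted p = 0.32). Its probe was dim, with means of 4.82 in female MI and 5.30 in female sham mice, and was detected on 2 of 5 female MI arrays. For both Pttg1 and Cenpf the MI and sham groups overlapped in each sex.

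The anaphase-promoting complex, whose activator Cdc20 had risen, did not follow it. Of 13 genes listed, its subunits and the activator Fzr1, 9 were measured and 0 were called higher. The medians were −0.08 in males and 0.04 in females. Anapc13 alone was called lower, by 0.46 in males and 0.41 in females on the log2 scale. Of 15 G1 cyclins, CDKs and CDK inhibitors 13 were measured. Among these, 3 were called higher and 1 lower in males, and 8 higher and 1 lower in females, with medians of 0.24 and 0.39. Ccnd1 (cyclin D1) rose 1.90-fold in females (adjusted p = 0.000404) and had a male difference of 0.28 (adjusted p = 0.282). Cdk2 rose 1.43-fold in males and 1.45-fold in females. Cdkn1c, which encodes the CDK inhibitor p57, fell by 1.06 in males and by 1.07 in females (log2 values, adjusted p = 0.000339 and 9.9e-05).

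The E2F factors and pocket proteins set the gate from G1 into S phase. Of 22 genes of the E2F, pocket protein, MuvB and NF-Y families 14 were measured. In males 5 were called higher and 1 lower, and in females 5 higher and 2 lower, with medians of 0.13 and 0.08. The MuvB genes Lin9, Lin37 and Lin52, and also E2f7, E2f8 and Mybl1, were detected on 0 arrays and have no measured level here. E2f1 rose 2.46-fold in males and 3.82-fold in females, and E2f2 rose 2.28-fold and 2.72-fold. Tfdp2, a dimer partner of E2F, fell by 0.52 in males and 0.71 in females on the log2 scale. E2f6, a repressor of the family, fell by 0.47 in females and had a male difference of −0.22 (adjusted p = 0.215). DNA replication genes had the highest medians of these 5 lists: of 28 genes 24 were measured, 18 were called higher in males and 19 in females, and 0 were called lower. Their medians were 0.91 in males and 1.00 in females. Tyms, thymidylate synthase, rose 3.36-fold in males and 4.75-fold in females, and Mcm5, a subunit of the replicative helicase, rose 3.15-fold and 3.86-fold.

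**Figure D5:**
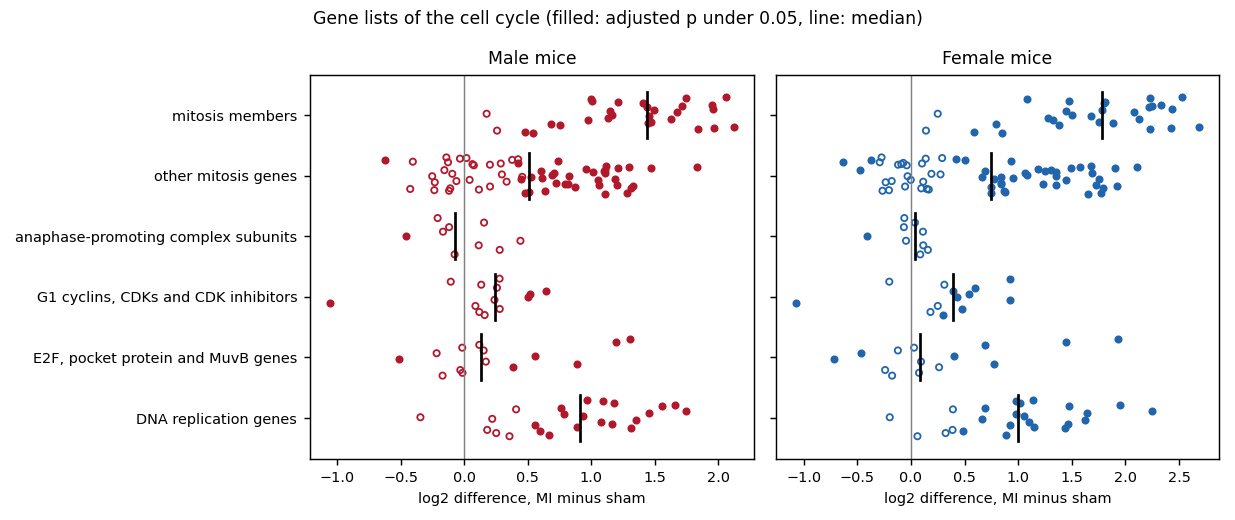
Log2 difference of MI minus sham for each measured gene of the 29 mitosis genes and of 5 further cell cycle lists, in male (left) and female (right) mice, with filled points for genes called at an adjusted p under 0.05 and a black line at the median of each list. The medians of the mitosis genes, 1.44 and 1.78, lie to the right of the other lists, and the anaphase-promoting complex lies around 0.

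RNA of some other cell types rose along with these genes, and that of others did not. The counts of each marker list are to be read against all tested genes. Of these, 9.77% were called higher and 8.59% lower in males, and 16.5% higher and 16.3% lower in females. Cardiomyocyte markers, which check the tissue, were bright in all groups, with array means of 12.80 to 12.87 in male MI, 11.94 to 12.87 in female MI, 12.13 to 12.97 in male sham and 11.72 to 12.99 in female sham mice. Of the 7 measured, 0 were called in males and 2 were called lower in females. Macrophage and monocyte markers rose, 7 of 10 in males and 9 of 10 in females, with array means of 8.41 to 8.89 in male MI against 7.82 to 8.11 in male sham mice, and of 8.40 to 9.25 in female MI against 7.80 to 8.26 in female sham mice. All 5 measured neutrophil markers rose in both sexes, with array means of 6.30 to 7.28 in male MI against 5.01 to 6.03 in male sham mice, and of 6.48 to 7.54 in female MI against 5.07 to 6.09 in female sham mice. The neutrophil granule genes Ngp, Camp and Ltf were detected on 0 arrays.

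Fibroblast markers were called higher for 4 of 8 in males and 3 of 8 in females, and markers of activated fibroblasts for 4 of 5 in males and 5 of 5 in females. The array means of the activated fibroblast list were 9.45 to 9.91 in male MI against 7.03 to 7.88 in male sham mice, and 9.66 to 10.88 in female MI against 7.10 to 8.14 in female sham mice. The probe of Postn was detected on 0 arrays. No endothelial marker was called higher in either sex, and of 6 measured 1 was called lower in females, against 16.3% of all tested genes. Of 5 smooth muscle and pericyte markers 1 was called lower in males and 3 in females. The T cell and NK cell list had 0 of 7 markers measured, with 6 of them detected on 0 arrays, and 1 of 5 B cell markers was measured and not called. Of 3 erythroid markers 1 was called lower in each sex. The part of these cell types in the rise of the mitosis genes was not tested.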

How the data were processed

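RNA of the left ventricle of 20 mice was measured on Illumina BeadChips, 1 array per mouse. The authors deposited bead intensities on a linear scale that were not normalised, with a detection p-value per probe and array, per the file headers. They also deposited a log2 matrix, used as an alternative, whose columns correlated with their own arrays at r of 0.997 to 1.00 and had medians of 5.14 to 5.15. No label or header names the scanner software.

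The intensities were processed in R 4.3.3 by neqc of limma 3.58.1: background correction (negative controls inferred via detection p), an offset of 16, quantile normalisation and log2. Of 45281 probes 18683 passed the detection filter, 34885 had 1 gene symbol, 18 several and 10378 none. The linear model had a mean for each group and no covariate, over 20 arrays, leaving 16 residual degrees of freedom. Adjusted p-values are limma's, over all 12921 features, and the procedure was tested on simulated data. Promoter windows came from RefSeq, build GRCm38.p6. The sample titles give the group and the chip position and no mouse number, and mice were numbered here in array order. Same-numbered MI and sham mice correlated at −0.33 to 0.14 in males and −0.06 to 0.32 in females. Because the numbers are not the authors', these values cannot show whether mice were paired. The 48 genes, the other gene lists and the naming rule were chosen with earlier results of these data known. Values by mouse are given for the largest and smallest response of each functional group, for Cdk1 and Top2a, and for Plk1 between the sexes.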

Additional observations from a re-analysis of the deposited data

Results flagged for a closer look

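Over 116 sets of 5 mice (29 genes in 4 groups), 10 held a mouse whose distance from its nearest neighbour was large against the range of its group. Chance alone does this in about 1 of 20 sets. The 29 genes were measured in the same mice and vary together, so the 116 sets are not independent. The count of 10 therefore cannot be judged against that rate. All 10 lay in MI mice, 7 at the low end in female MI 3 and 3 at the high end in male MI 3. Female MI 3 was low for Aurka at 6.198, Bub1b at 7.111, Cdk1 at 7.405, Mad2l1 at 7.046, Mybl2 at 5.189, Smc4 at 4.579 and Spag5 at 5.800. Male MI 3 was high for Foxm1 at 6.431, Ncapd2 at 7.801 and Spc25 at 6.244.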

How the results depend on the processing

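The mitosis genes called higher numbered 11 in males and 11 in females when only genes detected on all 20 arrays were tested, because only 12 remained. They numbered 12 in males and 23 in females when a rise beyond 1.5-fold was required. Leaving out each array in turn gave 26 to 27 genes in males, 27 to 28 in females and 0 to 13 for female MI against male MI, where 13 came without female MI 3. Array weights, estimated from these same arrays, gave 25 for female MI against male MI. The interaction and the sham comparison had 0 calls among the mitosis genes in each of these fits. With the chip as a term Smc4 had a female difference of −0.0504, and 75th percentile scaling gave Cenpa a male difference of −0.0403. That scaling moved the median of all male genes to −0.13 and the share of calls that were higher to 32.8%, against 53.2%, while 26 mitosis genes were called higher in males and 27 in females. With the mouse number, assigned here in array order, as a block, the counts were 27 in males and 27 in females. No call of a mitosis gene changed in that fit, which is no check of a pairing by the authors. The authors' deposited log2 matrix gave 27 and 27 with smaller medians, 1.05 in males and 1.47 in females. Probes near the background limit what can be read: 16 of 48 genes had a probe that did not count as measured, and differences of dim probes are understated.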
